A study of Homo sapiens with 12 samples.

Results

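The genes described here are the receptor chains of the interleukin-6 (IL-6) cytokine family, the Janus kinases (JAKs) that carry their signal and 2 brakes on it, in CAOV3 and TOV21G ovarian cancer cells with and without ovarian cancer ascites. The 10 members were listed by name: the receptors IL6R, IL6ST, OSMR, LIFR and IL11RA, the kinases JAK1, JAK2 and TYK2, and the brakes PIAS3 and PTPN2. All 10 were found among the 19251 genes with values, and the rule that names them uses no measured value.

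RNA was sequenced in 12 libraries that fall into 4 groups of 3: CAOV3 untreated, CAOV3 with ascites, TOV21G untreated and TOV21G with ascites. Both are established epithelial lines whose genotype the labels give as WT, CAOV3 labelled high grade serous and TOV21G clear. All groups were grown in DMEM with 10% fetal bovine serum and antibiotics, from 250000 seeded cells in 1.5 mL. Ascites, the fluid that gathers in the abdomen of patients with ovarian cancer, was added to the treated wells at 10% (150 µL) for 16 h. The labels name no fluid added to the untreated wells, and they do not say whether the ascites came from 1 or several patients. They also do not say whether replicates were separate cultures, so p-values measure the spread between these libraries, which may be technical. Each group stands for 1 cell line, so a difference between the lines is a difference between those lines and not between tumour types.

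Many cytokines of the IL-6 family bind a receptor chain of their own and then recruit IL6ST, also called gp130. Nearly all of the family share this chain. IL6R binds IL-6 and IL11RA binds IL-11, while LIFR and OSMR pair with IL6ST to transmit leukaemia inhibitory factor and oncostatin M. JAK1, JAK2 and TYK2 sit on the inner tails of these chains and phosphorylate STAT3, which then switches on its targets, among them the inhibitor SOCS3. PIAS3 binds active STAT3, and PTPN2 is a phosphatase that removes phosphate from JAK and STAT proteins. Ovarian cancer ascites is known to be rich in IL-6.

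Values are the authors' normalised read counts, that is reads divided by a size factor for the library. The libraries held 26697609 to 34491304 reads, and between 18153 and 18426 genes were read in each. Of the epithelial markers the keratins KRT8 and KRT18 were present in all groups, whereas CDH1, CLDN4 and KRT19 were high in CAOV3 controls (425, 3853 and 16839) and far lower in TOV21G controls (13.3, 30.1 and 274). Of the fibroblast markers COL1A2 stood at 10854 in TOV21G controls (2.46 in CAOV3) and LUM at 4196 in CAOV3 controls (0 in TOV21G). PAX8, a marker of serous and Mullerian tumours, was nearly absent from CAOV3 controls at 19.1 ± 1.17 (SD, n = 3) and stood at 7032 ± 259 in TOV21G controls, so the serous label of CAOV3 was not borne out by this marker. Of 8 leukocyte markers, 2 were analysed here (CD14 and LYZ), and their summed counts were 117 to 134 in CAOV3 controls and 101 to 125 with ascites, against 8.39 to 13.0 and 11.6 to 20.4 in TOV21G. The nuclear transcript KCNQ1OT1 varied within TOV21G: it had 95.4, 656 and 234 counts in TOV21G controls and 731, 235 and 1511 with ascites, against 614 to 813 in CAOV3. Control replicate 1 and ascites replicate 2 were the lowest of their groups, and control replicate 3, at 234, was as low as that ascites library. The results that control replicate 1 and ascites replicate 2 move are given with and without them, a choice made after seeing the data.

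Testing required 10 normalised counts or more in 3 or more libraries, a condition that 17616 genes met. A gene was called where the adjusted p (limma, Benjamini-Hochberg over all tested genes) was under 0.05. Differences are on the scale of log2(normalised count + 1), where the change of a low gene comes out too small. All 10 members were tested, OSMR and LIFR only through their TOV21G libraries, so these 2 had to differ between the lines. In outline, the lines differed at 8 of the 10 members, 6 higher and 2 lower in TOV21G. Of all tested genes, 82.2% were called in that comparison of untreated cells (40.8% higher and 41.4% lower), so the count itself lies near the background, and the sizes carry the description. With ascites 1 member was called in CAOV3, IL6ST, and none in TOV21G, where 1.73% (0.636% as rises) and 0.409% of all tested genes were called. These shares rest on 305 and 72 genes, and the counts ran from 172 (without CAOV3 ascites replicate 2) to 344 (without TOV21G control replicate 1) and from 24 (without TOV21G control replicate 3) to 136 (without TOV21G ascites replicate 2) over the fits that left out 1 library.

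**Figure D1:**
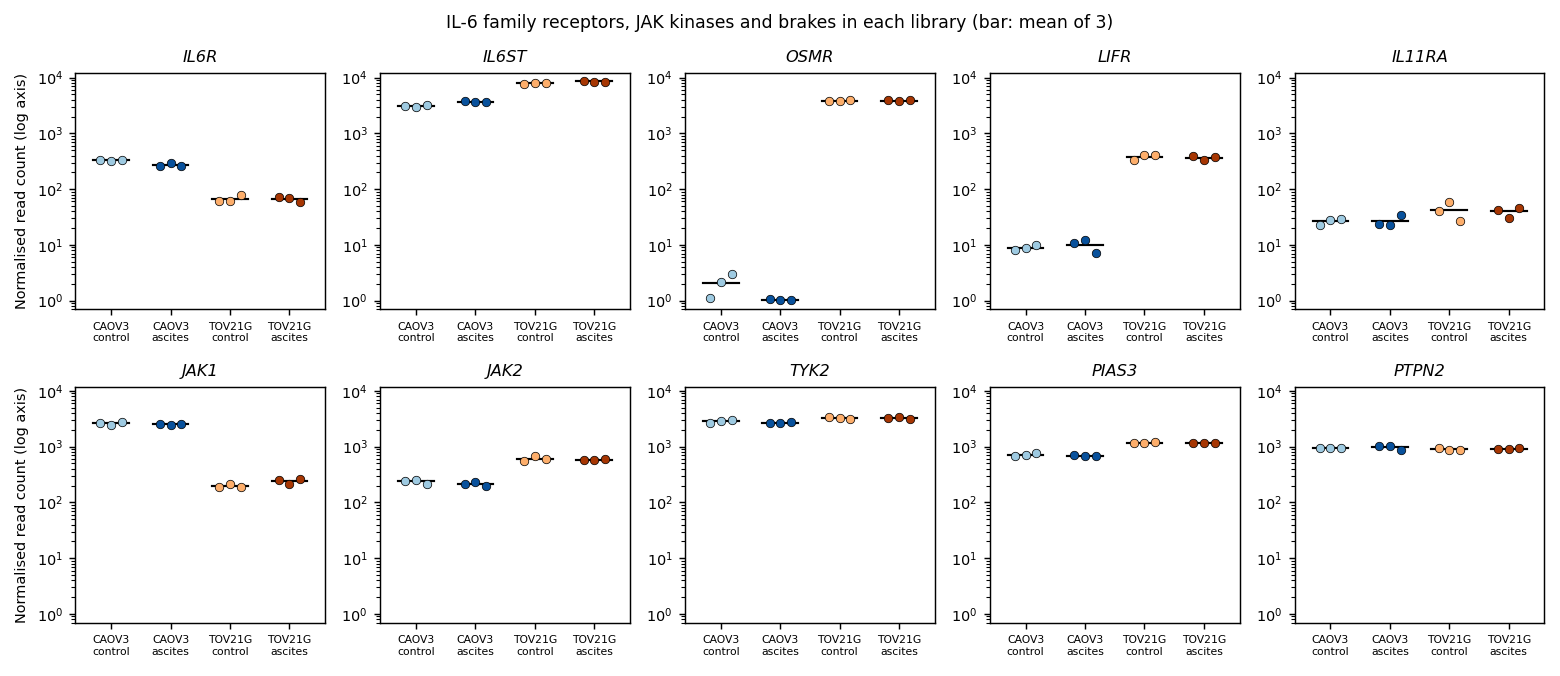
Normalised read counts (log axis) of the 10 members in each of the 12 libraries, with a point per library and a bar at the mean of 3. OSMR and LIFR stand low in all CAOV3 libraries and high in all TOV21G libraries, JAK1 and IL6R the other way round, and the treated and untreated points of a line lie close together in every panel but that of OSMR in CAOV3, where each library held 1 to 3 reads.

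The promoters of the members that the comparisons turn on are printed first, as a description of the sequence at their starts. RefSeq on GRCh38.p14 gave 18 promoter windows for the 10 members, each from 250 bases before to 50 bases after an annotated start. Each is written 5′ to 3′ on the gene's own strand. Capitals mark the motif TTCNNNGAA, the spaced palindrome that STAT factors bind, which reads the same on both strands and was sought without overlap with any other motif. It was found in 2 of the 18 windows, both at LIFR, and in 7.66% of all 35116 promoter windows in the table. The first 2 sequences belong to the neighbouring receptor genes that were low in CAOV3, the next is a further LIFR start, and the last 2 belong to the member that rose with ascites and to the kinase with the largest difference between the lines. The OSMR window held 23 CpG dinucleotides and that of IL6ST 36, against a median of 14 over all windows. The JAK1 window held 43 and its other windows 9 and 15, while the LIFR windows printed here held 9 and 2 and the LIFR window not printed 51.
OSMR, chr5:38845762-38846061, plus strand: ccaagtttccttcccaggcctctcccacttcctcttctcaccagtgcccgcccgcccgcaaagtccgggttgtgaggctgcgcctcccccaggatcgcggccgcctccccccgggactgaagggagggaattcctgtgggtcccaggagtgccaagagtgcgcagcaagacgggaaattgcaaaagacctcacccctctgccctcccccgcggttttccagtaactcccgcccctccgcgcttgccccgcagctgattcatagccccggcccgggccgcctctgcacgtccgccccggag
LIFR, chr5:38557418-38557717, minus strand: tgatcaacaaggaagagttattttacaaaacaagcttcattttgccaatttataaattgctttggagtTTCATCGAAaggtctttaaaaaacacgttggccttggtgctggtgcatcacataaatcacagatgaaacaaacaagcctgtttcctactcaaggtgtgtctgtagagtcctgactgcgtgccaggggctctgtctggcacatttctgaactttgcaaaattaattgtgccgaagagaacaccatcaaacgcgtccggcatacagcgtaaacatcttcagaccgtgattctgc
LIFR, chr5:38595356-38595655, minus strand: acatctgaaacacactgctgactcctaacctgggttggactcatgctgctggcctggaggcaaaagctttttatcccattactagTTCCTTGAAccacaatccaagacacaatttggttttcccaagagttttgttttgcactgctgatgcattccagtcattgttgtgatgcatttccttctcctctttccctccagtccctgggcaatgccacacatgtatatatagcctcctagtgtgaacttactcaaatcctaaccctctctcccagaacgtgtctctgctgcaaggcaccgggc
IL6ST, chr5:55994914-55995213, minus strand: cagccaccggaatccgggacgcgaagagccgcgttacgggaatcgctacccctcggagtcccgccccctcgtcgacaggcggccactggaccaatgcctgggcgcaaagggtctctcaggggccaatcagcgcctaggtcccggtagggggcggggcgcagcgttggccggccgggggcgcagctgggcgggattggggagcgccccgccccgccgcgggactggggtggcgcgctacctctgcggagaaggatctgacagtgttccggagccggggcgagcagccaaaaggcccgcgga
JAK1, chr1:64966500-64966799, minus strand: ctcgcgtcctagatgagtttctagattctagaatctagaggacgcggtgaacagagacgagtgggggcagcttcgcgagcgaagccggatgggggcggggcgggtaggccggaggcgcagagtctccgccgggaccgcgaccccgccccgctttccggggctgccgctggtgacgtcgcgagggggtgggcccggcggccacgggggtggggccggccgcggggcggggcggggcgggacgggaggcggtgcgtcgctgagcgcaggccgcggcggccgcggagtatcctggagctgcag
A match is a description of the letters, not a site of binding, and which start each line uses was not tested.

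IL6ST (ENSG00000134352, chromosome 5, 55935095 to 55994993, minus strand) encodes the shared chain gp130 and was the member that rose with ascites in CAOV3. In CAOV3 controls it had 3072, 2990.3 and 3265 normalised counts, and with ascites 3813, 3669 and 3623. Every treated library lay above every control. The difference was 0.25 (log2, SE 0.04, 95% interval 0.16 to 0.34; 1.19-fold) with an adjusted p of 0.00560 from limma. It was called in each of the 12 fits that left out 1 library, where the adjusted p lay between 0.00440 and 0.0385.

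In TOV21G controls IL6ST had 7687, 7969 and 8052 normalised counts, and with ascites 8759, 8464 and 8403. Here too the groups did not overlap, but the difference of 0.11 (log2, SE 0.04) was not called, at an adjusted p of 0.427 (limma). The responses of the lines were compared directly: TOV21G minus CAOV3 was -0.14 (log2, SE 0.06, 95% interval -0.26 to -0.02), with an adjusted p of 0.383. A difference between the lines in how IL6ST responded was therefore not called. Between untreated lines IL6ST was 2.54-fold higher in TOV21G, a difference of 1.35 (log2, SE 0.04, adjusted p 1.43e-12, limma).

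IL6R (ENSG00000160712, chromosome 1, 154405193 to 154469450, plus strand), the chain that binds IL-6, was the receptor that stood higher in CAOV3. Its counts were 337, 326 and 331 in CAOV3 controls and 264, 299.6 and 264 with ascites. All treated CAOV3 libraries lay below the controls, yet the difference of -0.27 (log2, SE 0.12, 95% interval -0.53 to 0.00) was not called, with an unadjusted p of 0.0465 and an adjusted p of 0.375 in limma. With the CAOV3 libraries fitted alone the adjusted p was 0.0454 (limma), the lowest of its 22 alternatives, and the highest was 0.612. In TOV21G the controls had 61.8, 60.8 and 77.2 and the ascites libraries 73.7, 69.9 and 59.1, and these groups overlapped. Untreated TOV21G cells held 4.94-fold less IL6R than CAOV3, a difference of -2.31 (log2, SE 0.12, adjusted p 4.65e-10, limma). In bulk RNA fewer cells that express a gene and less RNA of it in each cell cannot be told apart.

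The balance of the shared chain to the IL-6 chain can be read from counts per kb of exon. IL6ST exceeded IL6R 6.52 ± 0.294 times (SD, n = 3) in CAOV3 controls and 9.36 ± 0.785 times with ascites, with library values of 6.33 to 6.86 and 8.50 to 10.0. In TOV21G the ratio was 83.3 ± 9.66 in controls and 88.5 ± 8.99 with ascites. The ratio was thus far larger in every TOV21G library than in any CAOV3 library, and within CAOV3 the treated libraries lay above the controls.

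OSMR (ENSG00000145623, chromosome 5, 38845858 to 38945596, plus strand), the oncostatin M receptor chain, showed the largest difference of all members. The CAOV3 controls held 1.13, 2.15 and 2.97 normalised counts, from 6 reads in all, and the CAOV3 ascites libraries 1.09, 1.02 and 1.02, from 3 reads. TOV21G controls held 3859.9, 3867 and 3919, and TOV21G ascites libraries 3921, 3802 and 3922. OSMR was near 0 in every CAOV3 library, and its TOV21G libraries all lay between 3802 and 3922. From the reads, the level in TOV21G controls was 1826 times that in CAOV3 controls (95% interval 839 to 4978, which covers counting error only), and with ascites 3714 times (1270.4 to 18009.7). In TOV21G the ascites difference was 0.00 (log2, SE 0.18), and in CAOV3 no fold is given at so few reads. The 3′ end of OSMR overlaps RICTOR on the other strand. RICTOR, a subunit of the mTOR complex, stood higher in CAOV3 (3670.1 ± 92.3) than in TOV21G (1553 ± 279) controls. Whether the authors' counting used strand is not given in the sources used here, so the few OSMR reads of CAOV3 cannot be told apart from reads of RICTOR.

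LIFR (ENSG00000113594, chromosome 5, 38474963 to 38608354, minus strand) encodes the receptor chain for leukaemia inhibitory factor and lies next to OSMR. It had 7.94, 8.61 and 9.90 normalised counts in CAOV3 controls and 10.9, 12.3 and 7.16 with ascites. In TOV21G the controls had 334, 411 and 406 and the ascites libraries 395, 331 and 378. The lines did not overlap and the treatments did. Untreated TOV21G cells held 39.2-fold more, a difference of 5.29 (log2, SE 0.19, adjusted p 8.02e-12, limma). The lowest TOV21G values, 334 and 331, came from control replicate 1 and ascites replicate 2, the lowest of their groups in KCNQ1OT1, while control replicate 3, also low in it, had 406. Without control replicate 1 and ascites replicate 2 the difference between the lines was 5.39 (log2).

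IL11RA (ENSG00000137070, chromosome 9, 34650702 to 34661892, plus strand) binds IL-11 and was low in both lines. It had 22.7, 28.0 and 29.7 normalised counts in CAOV3 controls, 24.1, 22.5 and 34.8 with ascites, 41.2, 57.7 and 26.9 in TOV21G controls and 43.1, 30.1 and 46.5 with ascites. Treated and untreated libraries overlapped in each line, and so did the controls of both lines. The difference between the untreated lines, 0.57 (log2, SE 0.28, 95% interval -0.04 to 1.18), was not called, at an adjusted p of 0.0750 in limma. Without TOV21G control replicate 3, the lowest library of its group, it was 0.85 with an adjusted p of 0.0123, and without TOV21G control replicate 2, the highest, 0.31 with 0.315. IL11RA overlaps GALT, a galactose enzyme, on the same strand. How reads of the shared stretch were counted is not given in the sources used here, so the IL11RA level may be understated. GALT had 137 ± 16.8 counts in CAOV3 and 111 ± 6.09 in TOV21G controls.

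JAK1 (ENSG00000162434, chromosome 1, 64833229 to 64966504, minus strand), a kinase bound to IL6ST, was the member with the largest fall from CAOV3 to TOV21G. CAOV3 controls had 2669, 2468 and 2783 normalised counts, and CAOV3 ascites libraries 2581, 2442 and 2514. TOV21G controls had 186, 212 and 189, and TOV21G ascites libraries 248, 215 and 266. Every CAOV3 library lay above every TOV21G library. The untreated difference was -3.75 (log2, SE 0.08, 95% interval -3.91 to -3.58), or 13.4-fold lower in TOV21G, with an adjusted p of 3.66e-14 in limma. A difference at least this large in size was found at 2114 of the 17616 tested genes. RAVER2, which overlaps JAK1 on the other strand, went the other way, with 643 ± 65.8 counts in CAOV3 and 1245 ± 99.7 in TOV21G controls.

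With ascites JAK1 lay higher in all TOV21G libraries than in the controls, but by a margin of a few counts, from 212 to 215. The difference of 0.31 (log2, SE 0.08, 95% interval 0.14 to 0.47; 1.24-fold) was not called, at an adjusted p of 0.161 in limma. Without TOV21G ascites replicate 2, the library at 215, it was 0.39 with an adjusted p of 0.0273. Without both that library and TOV21G control replicate 1 it was 0.36 with an adjusted p of 0.0546, and with the TOV21G libraries fitted alone the adjusted p was 0.698. In CAOV3 the JAK1 difference was -0.07 (log2, SE 0.08), and the groups overlapped. The difference between the responses, 0.38 (log2, SE 0.11, adjusted p 0.218, limma), was not called with all libraries and reached an adjusted p of 0.0459 without TOV21G ascites replicate 2.

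JAK2 (ENSG00000096968, chromosome 9, 4984390 to 5128183, plus strand), which also serves hormone and growth factor receptors, differed in the opposite direction to JAK1. It had 243, 252 and 218 normalised counts in CAOV3 controls and 218, 236 and 196 with ascites, against 556, 671 and 600.2 in TOV21G controls and 581, 572 and 609 with ascites. The lines were apart and the treatments overlapped in each. Untreated TOV21G cells held 2.56-fold more, a difference of 1.35 (log2, SE 0.09, adjusted p 5.22e-09, limma). The ascites differences were -0.13 in CAOV3 and -0.05 in TOV21G (log2, SE 0.09 each), with adjusted p of 0.590 and 0.894 in limma. JAK2 overlaps 11 annotated genes on its own strand and 2 on the other. Their effect on its counts was not tested.

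TYK2 (ENSG00000105397, chromosome 19, 10350529 to 10380676, minus strand), the kinase first known from interferon receptors, was the most even of the 3. It had 2679.5, 2874 and 2991 normalised counts in CAOV3 controls, 2676, 2609 and 2766 with ascites, 3474, 3326 and 3192 in TOV21G controls and 3327, 3430.0 and 3180.3 with ascites. TOV21G libraries lay above those of CAOV3, at 1.17-fold in the controls (0.23 on the log2 scale, SE 0.05, adjusted p 7.27e-04, limma). The ascites differences were -0.08 in CAOV3 and -0.01 in TOV21G (log2, SE 0.05 each), and the treated and untreated libraries overlapped.

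Since the kinases went different ways, their make-up was computed per library from counts per kb of exon. In CAOV3 controls JAK1 made up 47.6% ± 1.84 (SD, n = 3) of the JAK1, JAK2 and TYK2 level, JAK2 4.40% ± 0.489 and TYK2 48.0% ± 1.73. In TOV21G controls JAK1 made up 4.99% ± 0.314, JAK2 15.9% ± 1.50 and TYK2 79.1% ± 1.81. Per kb of all exons CAOV3 held JAK1 and TYK2 at overlapping levels, whereas in TOV21G TYK2 was the most and JAK1 the least. Per kb of the longest transcript the shares in CAOV3 controls were 42.8% for JAK1 and 53.6% for TYK2, so their balance depends on the length used. With ascites the JAK1 share was 48.0% ± 0.649 in CAOV3 and 6.18% ± 0.763 in TOV21G, where every treated library (5.38% to 6.89%) lay above every control (4.67% to 5.29%). These shares describe transcripts, and no protein was measured.

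**Figure D2:**
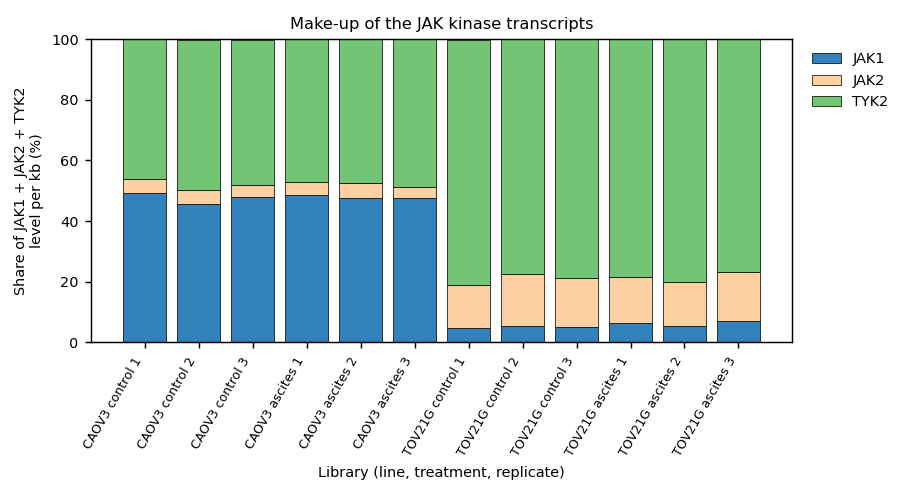
Share (%) of JAK1, JAK2 and TYK2 in their summed normalised count per kb of exon, 1 bar per library. JAK1 fills 45.6% to 49.3% of each bar in CAOV3 and 4.67% to 6.89% in TOV21G, where TYK2 fills 76.9% to 81.1%.

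PIAS3 (ENSG00000131788, chromosome 1, 145848522 to 145859836, minus strand), the inhibitor of active STAT3, was higher in TOV21G. It had 689, 703 and 763 normalised counts in CAOV3 controls, 699, 681 and 674 with ascites, 1142, 1155 and 1199.6 in TOV21G controls and 1147, 1177 and 1156 with ascites. The lines were apart and the treatments were not. Untreated TOV21G cells held 1.62-fold more, a difference of 0.70 (log2, SE 0.05, adjusted p 6.37e-09, limma), and the ascites differences were -0.07 in CAOV3 and -0.01 in TOV21G (SE 0.05 each).

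PTPN2 (ENSG00000175354, chromosome 18, 12785478 to 12929643, minus strand), the phosphatase that acts on JAK and STAT proteins, stood closest to even between the lines. It had 956, 957 and 954 normalised counts in CAOV3 controls, 1018, 1039.8 and 875 with ascites, 941, 871 and 889 in TOV21G controls and 906, 925 and 950.3 with ascites. The CAOV3 controls lay just above all TOV21G controls, but the difference of -0.09 (log2, SE 0.06, 95% interval -0.22 to 0.04) was not called, at an adjusted p of 0.199 in limma. The ascites differences were 0.03 and 0.04 (log2, SE 0.06 each), and the groups overlapped in both lines.

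Counts per kb of exon also give the order of the members within a group. In CAOV3 controls TYK2 (421 ± 23.2 per kb; SD, n = 3) and JAK1 (418 ± 25.3) overlapped at the top, followed without overlap by IL6ST (335 ± 15.2), PIAS3, PTPN2, IL6R (51.3 ± 0.868), JAK2 (38.5 ± 2.86), IL11RA, LIFR and OSMR (0.291 ± 0.128). In TOV21G controls IL6ST (850.5 ± 20.6) came first and OSMR (541 ± 4.52) next, above TYK2 (492 ± 20.8) and PIAS3 (243 ± 6.24). Below them PTPN2 (103 ± 4.15) overlapped JAK2 (98.7 ± 9.39), LIFR (32.3 ± 3.65) overlapped JAK1 (31.0 ± 2.20), and IL6R (10.3 ± 1.42) overlapped IL11RA (9.82 ± 3.60) at the bottom. With ascites IL6ST, JAK1 and TYK2 overlapped at the top in CAOV3, at 398 ± 10.7, 398 ± 11.0 and 396 ± 11.6. The order depends on the length used: with the longest transcript in place of all exons, 2 of 10 members changed rank in CAOV3 controls, 6 of 10 in TOV21G controls and 4 of 10 in each ascites group. By that length TYK2 (655 ± 36.2) lay above JAK1 (523 ± 31.7) in CAOV3 controls without overlap. With ascites TYK2 (617), JAK1 (498) and IL6ST (409) did not overlap in CAOV3, and TYK2 (766) lay above OSMR (701) in TOV21G controls.

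Over all members the response to ascites was small. The median difference was -0.07 in CAOV3 and 0.00 in TOV21G (log2), beside 0.00 and -0.02 over all tested genes. In size, the median was 0.11 in CAOV3 and 0.04 in TOV21G, beside 0.09 and 0.08 over all genes. Treated and untreated libraries did not overlap at 3 of 10 members in CAOV3 (IL6R, IL6ST and OSMR), where 24.2% of all tested genes showed no overlap. At OSMR this rests on 1 to 3 reads per library and on the size factor. In TOV21G they did not overlap at 2 of 10 (IL6ST and JAK1), where 11.1% did. In TOV21G 0 members were called by limma, edgeR or DESeq2, and 2 had an unadjusted p under 0.05 in limma, as had 9.17% of all tested genes. In CAOV3 3 members had an unadjusted p under 0.05, as had 12.9% of all tested genes. For the difference between the responses 0 members were called by these tools, and 3 had an unadjusted p under 0.05 (IL6ST, OSMR and JAK1), as had 11.9% of all tested genes, of which 0.545% were called. The OSMR value rests on the same few CAOV3 reads. Both lines' comparisons share the fit but not the control libraries.

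**Figure D3:**
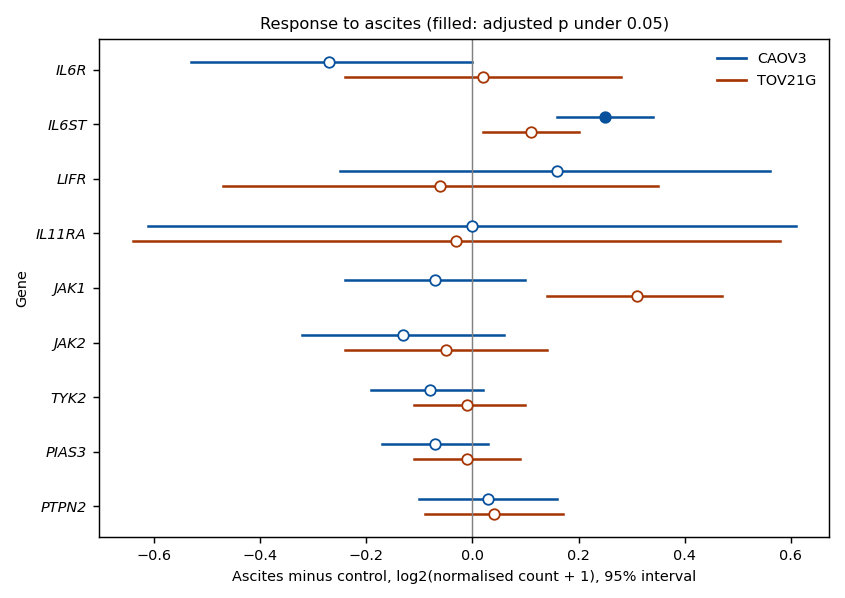
Difference between ascites and control libraries on the log2(normalised count + 1) scale with its 95% interval for 9 members in each line, where a filled point has an adjusted p under 0.05 (limma). The IL6ST point in CAOV3, at 0.25, is the filled one, and the open JAK1 point of TOV21G lies at 0.31. OSMR is not drawn, as it had 1 to 3 reads per CAOV3 library.

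Between untreated lines 6 of 10 members differed by at least 1 on the log2 scale, as did 42.3% of all tested genes. Of these, 4 were higher in TOV21G (IL6ST, OSMR, LIFR and JAK2) and 2 lower (IL6R and JAK1), beside 21.6% and 20.7% of all tested genes. OSMR and LIFR had to differ, having passed the filter through TOV21G alone, and of the other 8 members 4 differed by at least 1. The line groups did not overlap at 9 of 10 members, beside 82.6% of all genes.

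The rest of the pathway was read from lists that, like the members, were put together with earlier results of these data known, and their counts are descriptions. They name 85 further genes, of which 74 had values and 73 were tested. In CAOV3 11 of the 73 rose with ascites and 2 fell, beside 0.636% and 1.10% of all tested genes. LBP, 1 of the 11, passed the filter only through the treated CAOV3 libraries, so it had to rise. In TOV21G 0 of 73 were called in limma, beside 0.409% of all tested genes. At an unadjusted p under 0.05 in limma there were 5, beside 9.17% of all tested genes, and edgeR and DESeq2 called 1 each, IL6. Of the 73, 8 differed between the lines in their response, 1 with a higher and 7 with a lower value in TOV21G. Over all tested genes these shares were 0.238% and 0.307%. In the untreated comparison 49 were higher in TOV21G and 19 lower, beside 40.8% and 41.4% of all tested genes. IL6, PTPRD, EBI3 and SOCS1 passed the filter only through their TOV21G libraries, so a higher value there was built in. Each list below is to be read beside the same shares of all tested genes. With ascites 0.636% were called higher and 1.10% lower in CAOV3, and 0.409% were called in TOV21G. At an unadjusted p under 0.05 in limma the shares were 12.9% and 9.17%.

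Of 11 ligands of the family, 8 were tested, and 0 were called with ascites by limma in either line. At an unadjusted p under 0.05 there were 3 in CAOV3 and 2 in TOV21G, where edgeR called 1 each and DESeq2 called 0 and 1. Of all tested genes 12.9% and 9.17% lay under that unadjusted p in limma. IL6 itself was at 0 in all CAOV3 controls and had 2.19, 0 and 1.02 normalised counts with ascites, from 3 reads. In TOV21G controls it had 572, 505 and 495 counts, and with ascites 827, 839 and 855. The line that transcribed IL6 was therefore the one with the lower IL6R level, and its treated libraries all lay above its controls. From the reads, IL6 was at least 491-fold higher in TOV21G than in CAOV3 controls, taking a floor of 3 reads over the CAOV3 group. The ascites difference of IL6 in TOV21G was 0.68 (log2, SE 0.32; 1.60-fold) with an adjusted p of 0.545 in limma, in a fit whose spread for a gene is shared with the CAOV3 libraries near 0. It was called in edgeR (0.71, adjusted p 1.35e-04), in DESeq2 (0.68, adjusted p 1.05e-10) and in limma on the TOV21G libraries alone (adjusted p 0.00223). Over its 12 fits without 1 library it was called in none, with adjusted p of 0.267 to 0.994.

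The other ligands split between the lines. IL11, the ligand of IL11RA, had 573 ± 37.9 counts in CAOV3 and 40.9 ± 6.53 in TOV21G controls (13.8-fold lower, adjusted p 1.77e-12, limma). LIF, the ligand of LIFR, had 484 ± 7.95 and 1645 ± 58.7, so it was higher in the line with the higher LIFR level. EBI3, the shared subunit of IL-27 and IL-35, had 8.51 ± 5.71 and 386 ± 35.7, and CTF1 (cardiotrophin) had 20.3 ± 2.11 and 139 ± 9.40. CNTF was lower in TOV21G, at 51.5 ± 10.2 in CAOV3 against 30.2 ± 3.81 in TOV21G controls. It overlaps the annotated gene ZFP91-CNTF on the same strand, whose effect on its counts was not tested. CLCF1, at 364 ± 10.2 and 378 ± 38.9, was not called between the lines. OSM, IL27 and IL31 were not analysed here.

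Among 11 tested receptors and kinases that pair with IL6ST or use the same JAKs, 2 rose in CAOV3, beside 0.636% of all tested genes. JAK3, the kinase best known from lymphocyte receptors, had 80.6, 123 and 107 counts in CAOV3 controls and 325, 264 and 315 with ascites. It was thus the JAK gene that rose, by 1.55 (log2, SE 0.14, 2.93-fold, adjusted p 1.06e-04, limma), while JAK1, JAK2 and TYK2 were not called. In TOV21G JAK3 had 214, 260.0 and 263 counts and 229, 205 and 220.1 with ascites, and the responses differed by -1.71 (adjusted p 0.00320, limma). IL4R, the interleukin-4 receptor chain, rose by 0.27 in CAOV3 (SE 0.05, adjusted p 0.0164, limma), from 624 ± 28.7 to 755 ± 23.5, and was 2.44-fold higher in untreated TOV21G cells. This call was lost in 4 of the 12 fits without 1 library, with adjusted p of up to 0.0795. Between untreated lines 10 of the 11 were higher in TOV21G and 1 lower, beside 40.8% and 41.4% of all tested genes. Of the higher ones IL27RA differed most, at 138 ± 19.0 in CAOV3 against 1126 ± 75.4 in TOV21G controls. IL22RA1 was the lower one, at 86.1 ± 15.4 against 13.2 ± 3.46.

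STAT3, the factor that the receptors activate, was the 1 of 6 tested STAT genes that rose with ascites in CAOV3. Of all tested genes 0.636% rose in that comparison. It had 1809, 1757 and 1852 counts in CAOV3 controls and 2377, 2389 and 2525 with ascites, with no overlap. The difference was 0.43 (log2, SE 0.04, 1.35-fold, adjusted p 1.75e-04, limma). In TOV21G, where it started 4.17-fold higher, it had 7912, 7221 and 7464 counts and 7848, 8165 and 7726 with ascites, and the groups overlapped. The responses differed by -0.36 (log2, adjusted p 0.0210, limma), a call that 7 of the 12 fits without 1 library lost (adjusted p up to 0.0764). STAT2 (1.17) and STAT5B (-1.17) had the next largest log2 differences between the untreated lines.

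Of 8 SOCS genes, the feedback inhibitors of JAK signalling, 2 rose and 1 fell in CAOV3, beside 0.636% and 1.10% of all tested genes. SOCS3, which binds IL6ST and blocks its JAKs, had 159, 154 and 139.5 counts in CAOV3 controls and 416, 456 and 461 with ascites. SOCS2 had 23.8, 32.3 and 25.7 counts in controls and 64.5, 65.4 and 49.1 with ascites. The rises were 1.55 for SOCS3 (log2, SE 0.10, 2.94-fold, adjusted p 3.78e-06, limma) and 1.10 for SOCS2 (SE 0.13, 2.15-fold, adjusted p 6.30e-04). SOCS6 fell by 0.20 (log2, SE 0.04, adjusted p 0.0375, limma), from 1851 ± 108 to 1612 ± 14.1, and 8 of the 12 fits without 1 library lost that call. In TOV21G SOCS3 had 285, 237 and 260.2 counts and 229, 260.2 and 206 with ascites, and SOCS2 had 884, 797 and 851 and 855, 923 and 813. Neither gene was called there, and the responses of the lines differed at both, by -1.73 for SOCS3 (adjusted p 8.37e-05) and -1.07 for SOCS2 (adjusted p 0.0236). Leaving out 1 library ended the SOCS2 call in 8 of 12 fits (adjusted p up to 0.0799), and the adjusted p was 0.0504 without both TOV21G control replicate 1 and ascites replicate 2. SOCS2 was 30.1-fold higher in untreated TOV21G than in CAOV3 cells, followed by CISH (3.04-fold) and SOCS1 (1.07 on the log2 scale, at 6.61 ± 2.86 and 15.0 ± 5.84 counts).

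**Figure D4:**
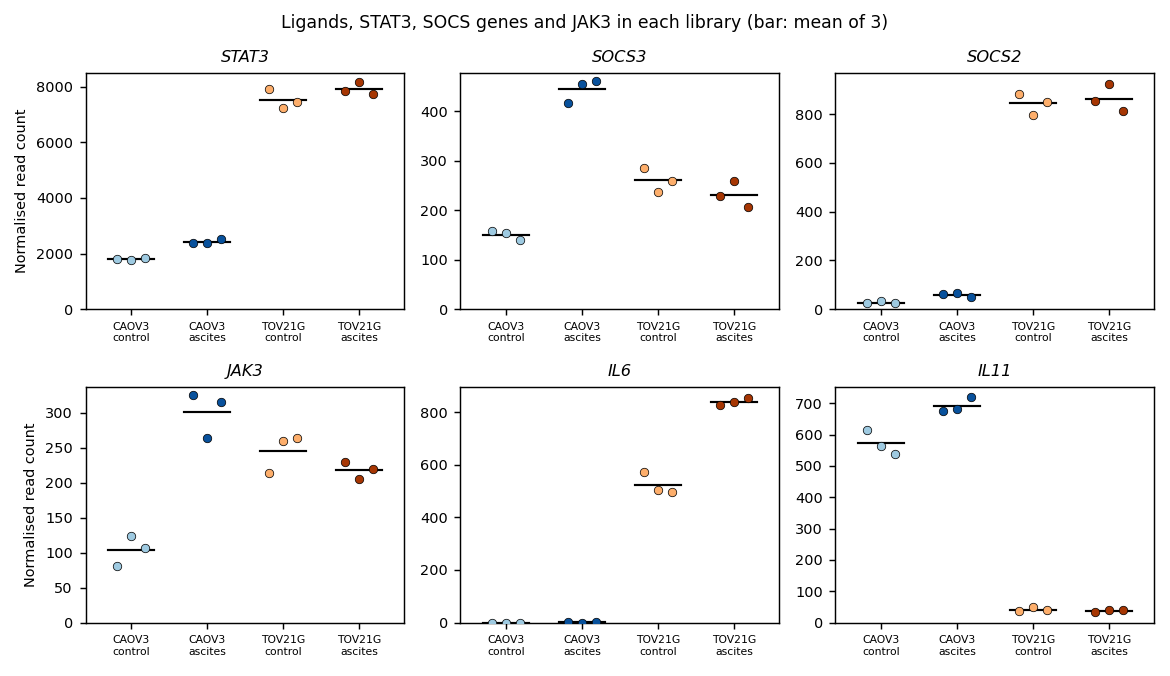
Normalised read counts of STAT3, SOCS3, SOCS2, JAK3, IL6 and IL11 in each of the 12 libraries on linear axes that start at 0, with a bar at the mean of 3. In CAOV3 the treated points of STAT3, SOCS3, SOCS2 and JAK3 lie above the controls, and IL6 is at or near 0 in CAOV3 and higher with ascites in TOV21G.

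Of 10 tested PIAS and phosphatase brakes beyond the members, 1 was called with ascites in CAOV3, beside 1.73% of all tested genes. PTPRJ, a receptor phosphatase, fell by 0.32 (log2, SE 0.04, adjusted p 0.00169, limma), from 4829.6 ± 81.5 to 3879 ± 79.4. In TOV21G it had 13405 ± 525 and 14287 ± 649, and the responses differed by 0.41 (adjusted p 0.00930). PTPRD, a phosphatase of STAT3, had 0 reads in CAOV3 and 2097 ± 240.0 counts in TOV21G controls, at least 1979.9-fold higher by the same floor. PTPN1 was lower in TOV21G (-0.89 on the log2 scale). Of 11 adaptors of the SHP2 and ERK branch and 6 genes of receptor shedding and trafficking, 0 were called with ascites by limma, edgeR or DESeq2 in either line. At an unadjusted p under 0.05 there were 5 of the adaptors in CAOV3 and 0 in TOV21G, and 0 of the shedding genes in either. Of all tested genes 12.9% in CAOV3 and 9.17% in TOV21G lay under it in limma. In CAOV3 GAB1, an adaptor of SHP2, came nearest, at -0.41 (log2, adjusted p 0.0649). It also differed most between the lines, 46.0 ± 2.48 against 1344 ± 64.4, followed by MAPK3 (1.52 on the log2 scale) and NRAS (1.22). ADAM10 and ADAM17, the proteases that shed IL6R, had log2 differences of 1.00 and 0.44 between untreated TOV21G and CAOV3 cells, and RHBDF2 and CBL, which act in shedding and receptor turnover, 0.72 and 0.66.

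Of 16 tested STAT3 targets, 8 were called as rising in CAOV3 and 0 as falling, beside 0.636% and 1.10% of all tested genes. PIM1 and BCL6, also on the list, lay lower in every treated CAOV3 library than in every control, but were not called. Their counts were 1202 ± 36.3 and 686 ± 23.6 in CAOV3 controls and 1070.3 ± 30.4 and 629 ± 36.9 with ascites. The list holds the members IL6ST and OSMR and was chosen with these results in view. LBP, 1 of the 8, reached 10 counts only in the treated CAOV3 libraries, so it passed the filter through them alone and had to rise. The 4 risers with the lowest adjusted p were FGB, FGA, SOCS3 and CEBPD. FGB and FGA, chains of the clotting protein fibrinogen, rose from 83.0 ± 19.4 to 1153 ± 125 and from 35.2 ± 6.83 to 300.4 ± 53.8, and CEBPD, an acute phase factor, from 99.4 ± 9.50 to 163 ± 6.58. The median difference over the 16 was 0.24 (log2) in CAOV3 and -0.01 in TOV21G, beside 0.00 and -0.02 over all genes. In TOV21G 0 of 16 were called in limma, edgeR or DESeq2, with 2 at an unadjusted p under 0.05 in limma, and FGB was already 54.2-fold higher there than in CAOV3 without ascites. BCL6, a repressor, was 17.5-fold lower in untreated TOV21G cells. The leukocyte markers CD14 and LYZ did not lie higher with ascites in CAOV3, at 81.3 ± 9.03 and 42.0 ± 10.6 in controls and 74.8 ± 9.66 and 35.1 ± 4.17 with ascites.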

How the data were processed

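The members and the pathway lists were chosen with earlier results of these data known. Per the submitters' processing notes, Trim Galore, cutadapt, STAR, HTSeq and DESeq were used. Their versions, the genome build, the annotation and the strand setting are not given in the sources used here. The authors deposited for each library a normalised count per gene, a signal that is never negative, for 19251 Ensembl identifiers. In every library 100% of these values were whole multiples of 1 step (within 0.01 reads), so they are read counts divided by a size factor, and whole reads were recovered. The list holds only genes with at least 10 reads in their highest library. Symbols came from a gene name table for 19087 identifiers and from GENCODE 29 for 136. Positions and exon lengths are those of GENCODE 29 on GRCh38, matched by identifier.

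The test was limma 3.58.1 in R 4.3.3 (lmFit, eBayes with a trend) on log2(value + 1), with all 12 libraries and a mean per group, two-sided, with Benjamini-Hochberg adjustment within each contrast over 17616 genes. A gene's spread is thus shared by both lines. The scripts were tested on simulated data. All 12 pairs of replicates within groups were further apart than read sampling gives (chi-square per degree of freedom 1.81 to 22.6), so none was a copy. No batch is given in the labels. Alternatives were edgeR 4.0.16 and DESeq2 1.42.0 on the recovered reads, pseudocounts of 0.5 and 5, no filter, upper-quartile and TMM scaling, a replicate block, each line alone, and each library left out. With TMM scaling edgeR called 511 genes with ascites in CAOV3 (limma 305), 114 in TOV21G (limma 72) and 148 for the contrast of both responses (limma 96). Named were all members, the ligands, and from each further list up to 4 genes called with ascites and up to 3 with the largest difference between the lines. PIM1 was named besides, after its values had been seen. Some genes of the lists are not reported here. Intervals of read ratios cover counting error only.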

Additional observations from a re-analysis of the deposited data

Results flagged for a closer look

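No member was called as differing between the lines in its response to ascites, where 0.545% of all tested genes were called. But 8 other genes of the pathway were called by the test of the difference itself (limma, TOV21G response minus CAOV3 response, log2). It was -1.73 for SOCS3 and -1.71 for JAK3. FGB stood at -3.81 and FGA at -3.06, both chains of fibrinogen. SOCS2 stood at -1.07, JUNB, a STAT3 target and AP-1 factor, at -0.54 (adjusted p 0.0269) and STAT3 at -0.36. PTPRJ, at 0.41, was the 1 gene of the 8 with a higher value in TOV21G. In each of the 12 fits without 1 library SOCS3, JAK3, FGB, FGA and PTPRJ were called, whereas SOCS2, STAT3 and JUNB were called in 4, 5 and 3 of them.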

How the results depend on the processing

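The difference between the untreated lines was called at 8 members in every alternative other than the fits without 1 library, where the count was 8 to 9. With a log2 difference of at least 1 it was 6 throughout, and for the other pathway genes (68) 66 to 69. No called value changed sign. With ascites in CAOV3, 1 member was called, IL6ST, against 0 with the replicate block (adjusted p 0.0998), 2 with each line fitted alone (IL6R as well) and 1 to 2 without 1 library. The 2 arose without CAOV3 control replicate 1, through OSMR (adjusted p 0.00590) at 1 to 3 reads. The other pathway genes called there numbered 13, against 22 with each line alone, 9 with the replicate block, 17 with edgeR, 15 with DESeq2 and 10 to 13 without 1 library. In TOV21G the members called were 0, or 0 to 1 without 1 library (JAK1, without ascites replicate 2), and the other pathway genes 0, or 1 with edgeR, DESeq2 or the line alone (IL6). For the difference between the responses the members called were 0, or 0 to 1 without 1 library (JAK1, the same library), and the other pathway genes 8, against 3 with the replicate block (SOCS3, FGB and FGA, but not JAK3 at an adjusted p of 0.0827 or PTPRJ at 0.178) and 5 to 9 without 1 library. The 5 arose without CAOV3 ascites replicate 1 and without TOV21G control replicate 3, ascites replicate 1 or ascites replicate 3. The cause of these shifts was not tested.

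Libraries with the same replicate number did not deviate together, so they share only a number. Their correlations were -0.02, 0.019 and 0.015 in CAOV3 and -0.113, -0.332 and 0.019 in TOV21G. Between different numbers in TOV21G the correlation was 0.352 for control replicate 1 and ascites replicate 2. For ascites replicate 3 it was 0.282 with control replicate 2 and -0.282 with control replicate 1. The rest lay between -0.048 and 0.088, and those of CAOV3 between -0.054 and 0.039. The cause was not tested. Over all genes the replicate block gave 116 calls with ascites in CAOV3 (305 without it), 13 in TOV21G (72) and 9 between the responses (96). Each line alone called 1295 in CAOV3 and 22 in TOV21G. DESeq2 called 507, 150 and 212. The alternative without TOV21G control replicate 1 and ascites replicate 2, the lowest of their groups in KCNQ1OT1, was chosen after seeing the data, and gave member counts of 1, 0, 0 and 8 over the same comparisons, with 614 genes called in CAOV3, 98 in TOV21G and 178 between the responses. Reads limit OSMR and IL6 in CAOV3, at 0 to 3 per library.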

Other observations

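The receptor genes LIFR and OSMR lie 237504 bp apart on chromosome 5, and their neighbours were looked at after the values of the pair had been seen. Within 500000 bp of them 6 genes had values, the pair included. OSMR-DT is a noncoding RNA on the other strand that starts at 38845829, just before the OSMR start at 38845858, and runs away from OSMR. It had 0 counts in every CAOV3 library, 15.0 ± 5.64 in TOV21G controls and 21.3 ± 9.63 with ascites (SD, n = 3). DAB2, an endocytic adaptor, had 1547 ± 132 in CAOV3 and 4186 ± 101 in TOV21G controls (1.44 on the log2 scale), so it too was higher in TOV21G, but was well read in CAOV3. RICTOR went the other way (-1.26). The sixth, ENSG00000251257, a noncoding RNA near LIFR (38460925 to 38468339), had 8.51 counts in CAOV3 controls and 14.2 with ascites, against 0.649 and 0.295 in TOV21G.

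Further genes were picked out after their values had been seen. FGG, the third fibrinogen chain, was below the filter for testing. It had 0 counts in all CAOV3 controls and 23.0, 6.13 and 21.5 with ascites, against 0.828 to 4.34 over the TOV21G libraries. LBP, which binds bacterial lipopolysaccharide, had 5.67, 3.23 and 0 counts in CAOV3 controls and 31.7, 26.6 and 36.8 with ascites.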
